A study of Mus musculus with 38 samples.

Results

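Expression of 32 genes of fatty acid oxidation and ketone body metabolism was examined in 38 RNA sequencing libraries of mouse intestinal epithelial cells. The 32 genes are a list given by name, and each was found once among the 46078 genes counted. The series compared mice that lack hexokinase 2 (Hk2), the enzyme that starts glycolysis, in the intestinal epithelium with their control littermates during dextran sodium sulfate (DSS) colitis, a model in which a sulfated sugar polymer in the drinking water injures the colon lining. KO stands for Hk2dIEC mice, in which floxed Hk2 is removed by Cre recombinase under the Villin promoter, which is active in intestinal epithelium. WT stands for littermates with Hk2 flox/flox alleles, so that both groups carried floxed Hk2. All mice were C57BL/6 and co-housed per the labels. Untreated animals (day 0) gave 4 WT and 5 KO libraries, day 3 of 1.5% DSS gave 7 WT and 8 KO libraries, and day 7 gave 7 WT and 7 KO libraries. The DSS mice were males aged 10 to 12 weeks. For day 0 mice the labels leave the sex open. Animals used for basal phenotyping are given as either 9 to 11 weeks or 86 to 92 weeks of age, without saying which ones were sequenced. Each library came from 1 animal and is named by day, genotype and animal number.

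Fatty acid oxidation shortens fatty acids in the mitochondrial matrix by repeated rounds of dehydrogenation, hydration, dehydrogenation and thiolysis, each round releasing acetyl-CoA and reduced electron carriers. Long chains are first activated to acyl-CoA and carried through the inner membrane as carnitine esters, whereas peroxisomes begin the oxidation of very long chains. Ketone body metabolism interconverts acetyl-CoA with acetoacetate and 3-hydroxybutyrate. Colonocytes are known for taking much of their fuel from butyrate, a bacterial short-chain fatty acid that enters the same pathway, and the nuclear receptors PPARα and PPARγ are known activators of many of its genes.

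The regions before the start sites of 3 members are shown first because these genes carried the main contrasts below: Acadl rose most steadily, Etfa rose with it, and Acsm3 fell. They are RefSeq sequences of GRCm38.p6, 250 bases up to the base before the start site, 5′ to 3′ on the strand of the gene. Capitals mark the AGGTCA motif (no match here), the CCAAT box (CCAAT) and the GC box (GGGCGG) on either strand. Acadl lies on chromosome 1 (66863310-66863559, minus strand), Etfa on chromosome 9 (55512244-55512493, minus strand) and Acsm3 on chromosome 7 (119760673-119760922, plus strand).
Acadl: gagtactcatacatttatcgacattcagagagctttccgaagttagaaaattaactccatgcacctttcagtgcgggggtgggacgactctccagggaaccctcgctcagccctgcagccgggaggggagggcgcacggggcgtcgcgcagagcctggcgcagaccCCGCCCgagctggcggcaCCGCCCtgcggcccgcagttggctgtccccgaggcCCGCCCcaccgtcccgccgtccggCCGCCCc
Etfa: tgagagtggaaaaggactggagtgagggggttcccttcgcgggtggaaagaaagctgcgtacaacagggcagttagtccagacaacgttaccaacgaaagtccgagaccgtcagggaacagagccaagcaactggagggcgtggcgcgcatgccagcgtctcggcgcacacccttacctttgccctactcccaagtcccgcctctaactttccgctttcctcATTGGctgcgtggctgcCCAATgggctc
Acsm3: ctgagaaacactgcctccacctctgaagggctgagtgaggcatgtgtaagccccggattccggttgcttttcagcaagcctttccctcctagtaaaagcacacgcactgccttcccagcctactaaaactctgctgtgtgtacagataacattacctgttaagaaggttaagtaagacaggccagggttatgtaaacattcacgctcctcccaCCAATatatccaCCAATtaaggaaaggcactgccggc

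The Acadl sequence held 4 GC boxes and no CCAAT box, and 68.0% of its bases were G or C. The Acsm3 sequence held 2 CCAAT boxes and no GC box, with 49.2% G or C. Etfa had 2 CCAAT boxes, with 58.8% G or C. RefSeq promoter windows (250 bases before to 50 after a start site) were found for 29 of the 32 members, as 33 windows. The GC box was in 69.7% of the member windows, against 46.2% of the windows of protein-coding genes and 35.7% of all windows. The CCAAT box was in 51.5% of them, against 38.2% and 37.4%. The motif AGGTCA, the repeated unit of PPAR elements, was in 21.2% of the member windows, against 14.7% and 16.3%. No member window held a direct repeat of AGGNCA with 1 base between (DR1) or the sequence TCAAGGTCA, which 0.381% and 0.423% of all windows held. These are letter matches on both strands in a short window. Hadha and Hadhb, which encode both subunits of the mitochondrial trifunctional protein, are transcribed away from each other on chromosome 5, with start sites 273 bases apart.

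The targeted gene, facts on the libraries and markers of cell types were checked before the members. Hk2 was at 337 ± 89.4 CPM (SD, n = 4; CPM, counts-per-million, are counts relative to the total of the library after TMM scaling) in WT and 71.8 ± 29.7 (n = 5) in KO on day 0, a difference that passed the test (adjusted p = 0.0331). On day 3 it was at 177 ± 48.2 in WT (n = 7) and 148 ± 120 in KO (n = 8; adjusted p = 0.802), and on day 7 at 331 ± 122 and 139 ± 69.6 (n = 7 each; adjusted p = 0.291). One library goes against its label: d3_KO_345, labelled KO, held Hk2 at 440 CPM, above every WT library of that day. Total counts were 10503352 to 44936774 per library on day 0 and 25180482 to 60644284 on days 3 and 7. The codes of the deposited counts hold 1 letter on day 0 and another on days 3 and 7. Wherever day 0 enters a comparison, DSS and the set of libraries therefore cannot be told apart. The libraries d0_WT_31 and d0_KO_32 had Xist at 412 and 454 CPM and almost no Ddx3y, the reverse of the other 36 libraries. Colonocyte markers summed to 4112 to 14370 CPM per library and small intestine markers to 26.5 to 306, the highest in d0_KO_60. Adipocyte markers summed to 5.78 to 12.2 CPM, of which Lipe made up 5.68 to 12.0, while Lep was at 0 in all 38 libraries and Adipoq in 34.

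Between days 3 and 7 of DSS, 5 members rose and 1 fell in WT, and 16 rose and 1 fell in KO, of 32 tested in each (edgeR quasi-likelihood test, adjusted p under 0.05 over all genes). Over all genes tested, 10.6% rose and 8.7% fell in WT, and 10.5% rose and 8.83% fell in KO. The median log2 fold change of the members was 0.18 in WT and 0.22 in KO, beside 0.01 and -0.01 over all genes. Of the members called, 4 were called in both genotypes, which is 66.7% of the WT calls and 23.5% of the KO calls, beside 62.3% and 62.2% over all genes (1871 called in both). These were Acadl, Hadha and Eci2, which rose, and Acsm3, which fell. The Hadha call in WT was made in 5 of the 14 fits that leave out 1 library and under 4 of 7 other settings. Of the calls, 5 of 6 in WT and 11 of 17 in KO were made in every fit that leaves out 1 library, and those of Cpt2, Acads and Etfb in KO in 5, 3 and 4 of 15. All 17 members called in KO had the same sign in WT, and no member passed the test of the difference between the genotypes in this change. Scaled to summed epithelium markers, 4 rose and 1 fell in KO, the members' median was 0.24, and of all called genes 64.4% were higher in place of 54.3%. The WT count depended on d3_WT_381: without that library 12 members rose and 2 fell. Over all genes 4051 of 15758 were called in that fit, in place of 3002 of 15541. With a score of small intestine genes as covariate, 1 rose and 1 fell in WT, and 1152 of 15541 genes were called.

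Markers of other cells and of gut position moved between the same days. The 5 Hox genes of the distal gut all fell in both genotypes, and their summed level had a median of 236 CPM on day 3 and 43.3 on day 7 in WT, and of 190 and 24.3 in KO. Neutrophil markers rose in all 7 genes in both genotypes, from a median sum of 21.97 to 319.5 CPM in WT (range on day 7, 146 to 1043) and from 41.2 to 188 in KO (120 to 1728). Macrophage and monocyte markers had median sums of 15.1 and 62.4 CPM in WT and 18.9 and 188 in KO, and inflamed epithelium markers 1334 and 11700 in WT and 953 and 9830 in KO. The inflamed epithelium list was led by Reg3b and Reg3g, which reached 26800 and 8305 CPM, while Duox2, the next, reached 966. Among the Hox genes, Hoxb13 had a median of 114 CPM over the 38 libraries and Hoxd13, the next, 4.28. The part of these markers in the changes of the members was not tested. In bulk libraries fewer cells of a type and less RNA per cell cannot be told apart.

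Acadl, the long-chain acyl-CoA dehydrogenase, catalyses the first oxidation step of long chains in the mouse and was the only member called in all 6 comparisons of days. In untreated WT mice it was at 86.8, 79.4, 77.7 and 79.8 CPM, and in untreated KO mice at 82.2, 67.2, 68.6, 67.4 and 75.3. On day 3 the lowest, median and highest libraries were at 166, 185 and 259 CPM in WT and at 153, 202 and 244 in KO. On day 7 they were at 270, 394 and 444 CPM in WT and at 253, 303 and 457 in KO. The levels of the 3 days did not overlap in either genotype, and WT and KO overlapped on each day. From day 3 to day 7 the log2 fold change was 0.91 ± 0.13 (SE; adjusted p = 0.000201) in WT and 0.72 ± 0.12 (adjusted p = 0.000663) in KO. Against day 0 it was 1.22 ± 0.13 on day 3 and 2.13 ± 0.15 on day 7 in WT, and 1.33 ± 0.12 and 2.06 ± 0.14 in KO. Per kilobase of exon, Acadl was the seventh most abundant member in untreated WT mice, at 40.4 CPM per kb, and the most abundant on day 7, at 187.

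**Figure D1:**
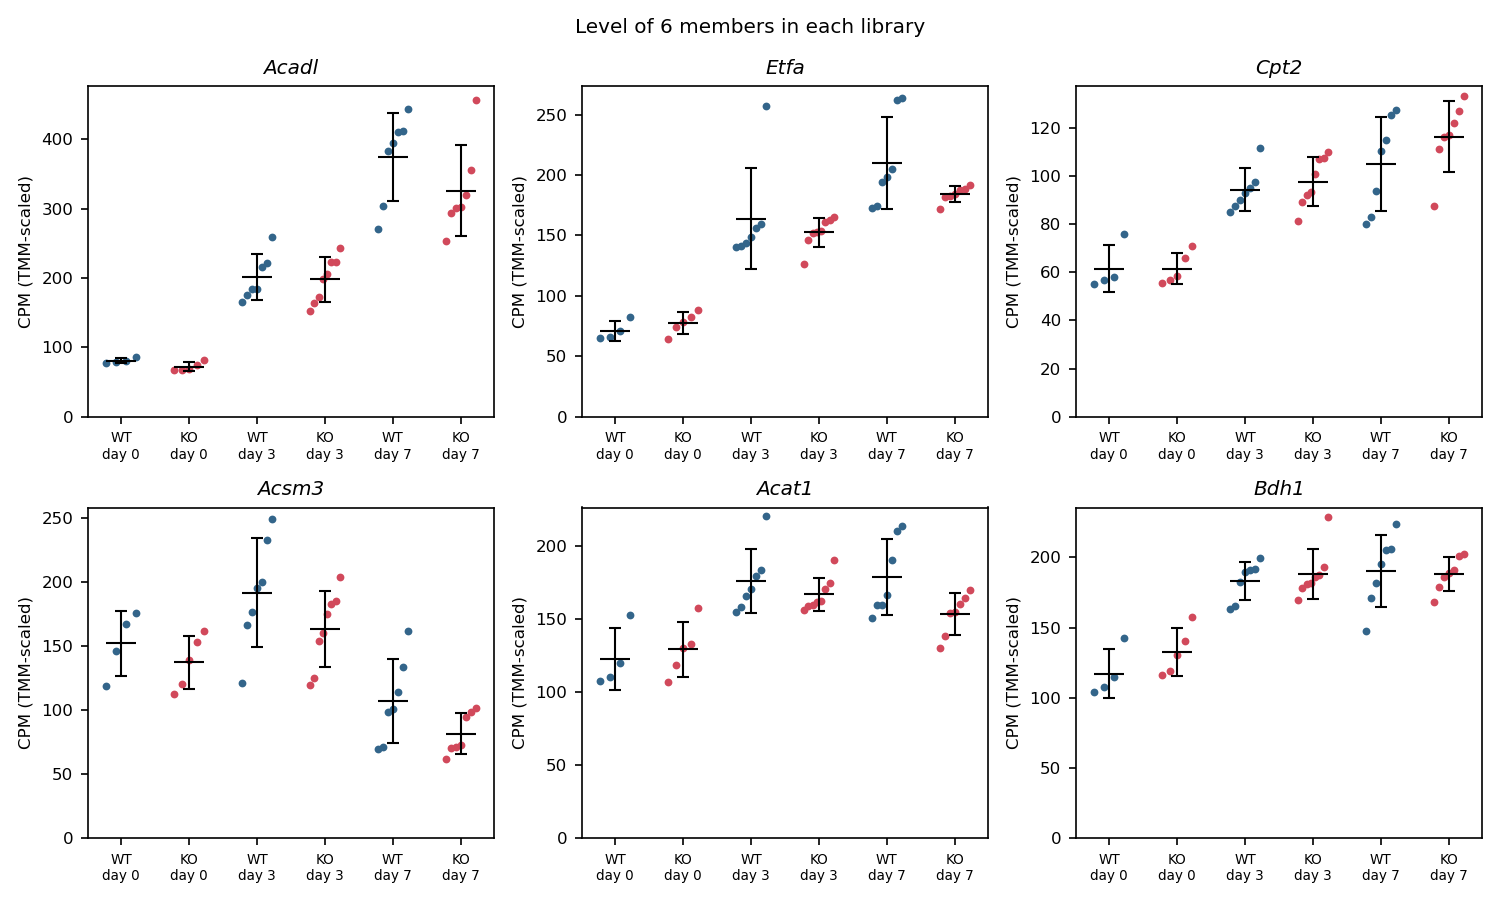
TMM-scaled CPM (y axis, from 0) of Acadl, Etfa, Cpt2, Acsm3, Acat1 and Bdh1 in each of the 38 libraries (points), by genotype and day (x axis, WT blue and KO red), with the mean and SD of each group. Within each genotype Acadl is higher on each later day with no overlap between days. Acsm3 is lower on day 7, and WT and KO overlap in all 6 genes on each day.

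The other acyl-CoA dehydrogenases, each for another chain length, moved less. Acads, for short chains such as butyrate, was the most abundant member per kilobase in untreated mice, at 98.2 CPM per kb in WT and 119 in KO. It was at 223 ± 30.9 CPM in WT on day 0, 339 ± 64.5 on day 3 and 377 ± 62.8 on day 7, and at 269 ± 27.7, 308 ± 28.2 and 358 ± 31.9 in KO. Against day 0 the log2 fold change on day 7 was 0.68 ± 0.14 (adjusted p = 0.00111) in WT and 0.30 ± 0.09 (adjusted p = 0.011) in KO. Acadm, for medium chains, rose in WT by 0.45 ± 0.15 by day 3 and by 0.50 ± 0.15 by day 7, and in KO it was at 122 ± 12.1 CPM on day 0 and 152 ± 16.8 on day 7 (adjusted p = 0.0791). Acadvl, for very long chains, passed the test only in KO between days 3 and 7, at 0.22 ± 0.06 (adjusted p = 0.0169). As 42.9% of the Acadvl exons overlap Dvl2 on the other strand and the counting ignored strand, its level is uncertain.

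Electron transfer flavoprotein takes the electrons of these dehydrogenases to ubiquinone, through its subunits Etfa and Etfb and the oxidoreductase Etfdh. Etfa was at 82.8, 65.8, 65.3 and 70.6 CPM in untreated WT mice and at 74.7, 88.6, 64.4, 78.4 and 82.4 in untreated KO mice. Lowest, median and highest values were 141, 149 and 257 CPM on day 3 and 173, 198 and 264 on day 7 in WT, and 127, 154 and 166 on day 3 and 172, 184 and 192 on day 7 in KO. Every DSS library was above every untreated library, and on day 3 d3_WT_381 stood far above the rest. Against day 0 the log2 fold change of Etfa on day 7 was 1.49 ± 0.14 in WT and 1.13 ± 0.08 in KO (adjusted p = 1.97e-06 and 7.09e-08). Between days 3 and 7 it rose in KO by 0.27 ± 0.06 (adjusted p = 0.00242). In WT the change was 0.37 ± 0.15 (adjusted p = 0.0996), and without d3_WT_381 it was 0.51 ± 0.10 (adjusted p = 0.00269). Etfb rose on day 7 against day 0 by 0.82 ± 0.18 in WT and by 0.41 ± 0.08 in KO, and Etfdh by 0.32 ± 0.11 and 0.34 ± 0.08, all called.

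Acyl-CoA synthetases activate fatty acids, and this step held both members that were called lower on day 7. Acsm3, a synthetase of medium-chain acids, was at 168, 119, 176 and 146.5 CPM in untreated WT mice and at 153, 162, 113, 139 and 120 in untreated KO mice. In WT the lowest, median and highest values were 121, 196 and 249 CPM on day 3 and 69.6, 101 and 162 on day 7. In KO they were 120, 168 and 204 on day 3 and 61.8, 72.6 and 102 on day 7. KO libraries of day 7 lay below all KO libraries of day 3, whereas the WT groups overlapped. From day 3 to day 7 Acsm3 fell by 0.82 ± 0.19 (adjusted p = 0.00693) in WT and by 1.00 ± 0.13 (adjusted p = 0.00011) in KO on the log2 scale, and neither day 3 group differed from day 0 by the test. Eri2 on the other strand overlaps 39.7% of the Acsm3 exons, so that its reads cannot be told apart there. Acsl1, a long-chain synthetase, fell from 27.4 ± 2.10 CPM on day 0 to 23.1 ± 3.05 on day 7 in WT (adjusted p = 0.029) and from 27.6 ± 4.68 to 22.3 ± 3.54 in KO (adjusted p = 0.0149). Acsl5, a long-chain synthetase prominent in intestine, rose from 120.5 ± 8.21 CPM to 156 ± 11.3 in WT and from 112 ± 8.08 to 155 ± 14.4 in KO between day 0 and day 7 (adjusted p = 0.0132 and 0.00261).

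**Figure D2:**
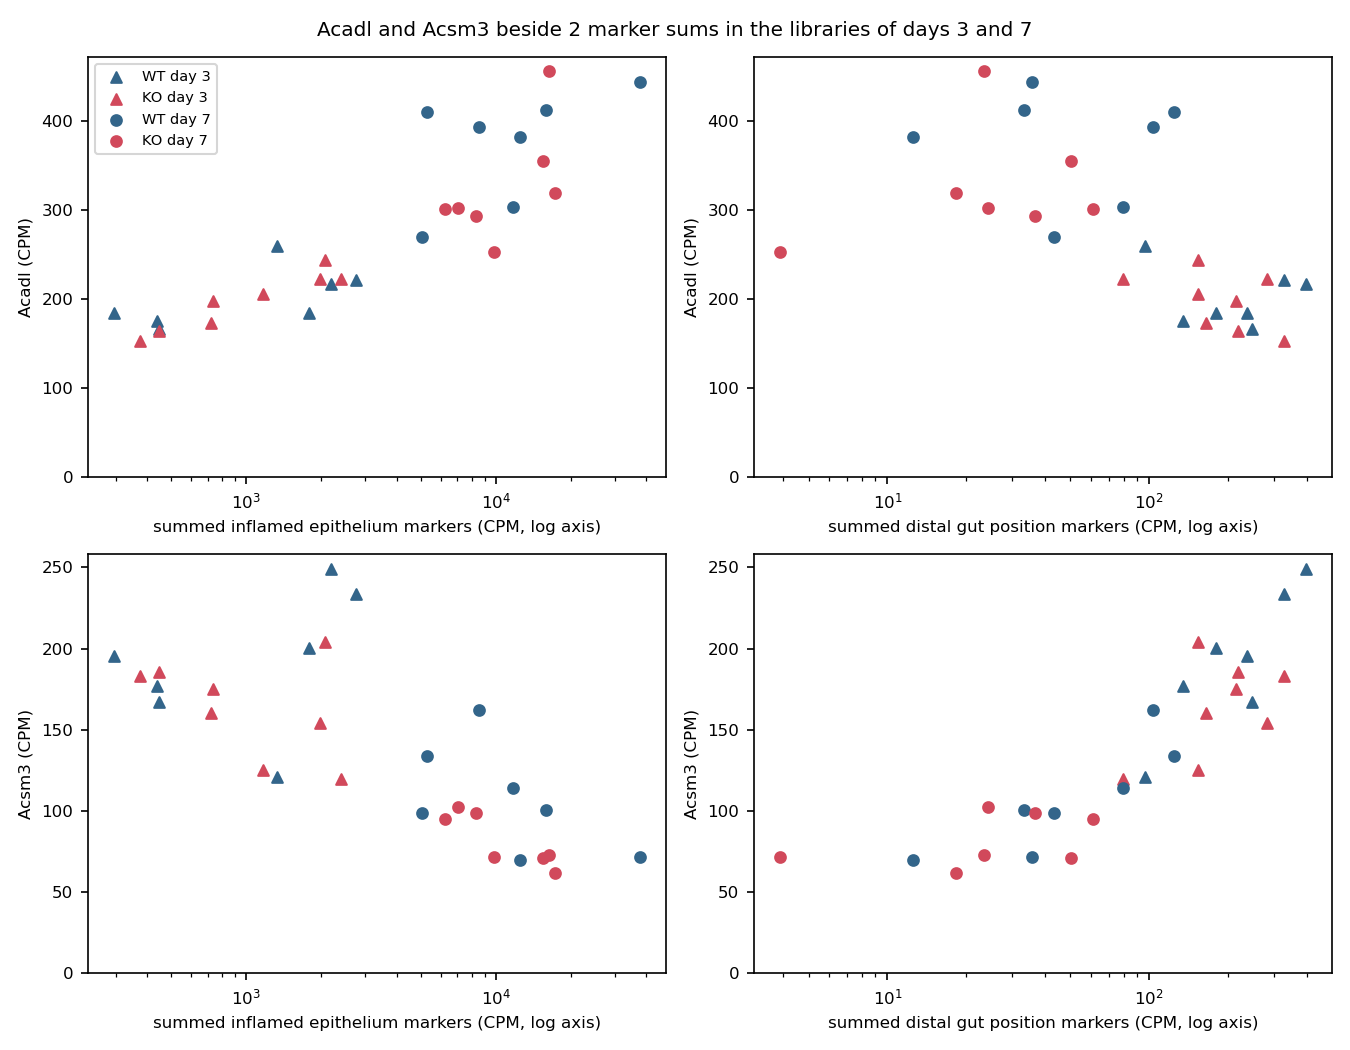
CPM of Acadl (top) and Acsm3 (bottom, y axes from 0) beside the summed CPM of inflamed epithelium markers (left) and of distal gut Hox genes (right, log x axes) in the 29 libraries of days 3 and 7; triangles are day 3 and circles day 7, WT blue and KO red. The libraries of day 7 have more inflamed epithelium markers and mostly fewer Hox transcripts than those of day 3. They mostly have more Acadl and less Acsm3.

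Within day 7 the libraries also differed in these markers. In WT the inflamed epithelium sum was highest in d7_WT_356, at 37640 CPM, which had the highest Acadl of its group (444 CPM) and 71.6 CPM of Acsm3. The lowest sums, 5052 in d7_WT_370 and 5312 in d7_WT_431, went with 270 and 411 CPM of Acadl and with 98.6 and 134 CPM of Acsm3. Hox transcripts summed to 124 and 104 CPM in d7_WT_431 and d7_WT_393, the most in that group, and these libraries had the most Acsm3, at 134 and 162 CPM. In KO on day 7 d7_KO_368 had 17270 CPM of inflamed epithelium markers, 319 of Acadl and the lowest Acsm3, at 61.8 CPM. The KO library with the most Acsm3, d7_KO_366 at 102 CPM, had 24.3 CPM of Hox transcripts, and the one with the most Hox transcripts, d7_KO_421 at 60.9 CPM, had 94.9 CPM of Acsm3. These values are given side by side without a test.

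The carnitine shuttle moves long chains into the matrix: Cpt1a joins them to carnitine, Slc25a20 carries them across and Cpt2 frees them. Cpt2 was at 55.0 to 75.9 CPM in WT and 55.7 to 70.9 in KO on day 0. It was at 85.0 to 112 CPM in WT and 81.2 to 110 in KO on day 3, above every untreated library. On day 7 it was at 80.3 to 127 CPM in WT and 87.4 to 133 in KO. Against day 0 its log2 fold change was 0.52 ± 0.11 on day 3 and 0.70 ± 0.15 on day 7 in WT, and 0.54 ± 0.09 and 0.80 ± 0.10 in KO, all called. Slc25a20 rose on day 7 against day 0 by 0.86 ± 0.16 (adjusted p = 0.000643) in WT and by 0.44 ± 0.17 (adjusted p = 0.0442) in KO. Cpt1a was at 308 ± 51.6 CPM in WT on day 0 and 452 ± 101 on day 7, and at 347.5 ± 14.3 and 456 ± 63.9 in KO (adjusted p = 0.0389 and 0.0291). With 1 library left out the Cpt1a call was made in 3 of 11 fits in WT and 9 of 12 in KO, and that of Slc25a20 in KO in 5 of 12. Under other settings these calls were made in 4 of 7, 5 of 8 and 5 of 8.

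Among the enzymes of the later mitochondrial steps, the trifunctional protein subunits were called between days 3 and 7 in KO, and Hadha alone in WT, a call lost in most fits that leave out 1 library. Hadha was at 335 ± 22.6 CPM on day 3 and 416 ± 70.7 on day 7 in WT, and at 332 ± 22.5 and 424 ± 34.2 in KO (log2 fold changes 0.33 ± 0.10 and 0.35 ± 0.06, adjusted p = 0.0351 and 0.000737). Hadhb was called in KO, at 0.31 ± 0.07 (adjusted p = 0.00592), and had 0.24 ± 0.11 in WT (adjusted p = 0.144). Echs1, Hadh and Acaa2, which act on shorter chains, had an adjusted p above 0.1 between days 3 and 7 in both genotypes and rose against day 0 in WT on day 3 and on day 7. In KO, Hadh rose against day 0 by 0.27 ± 0.09 on day 3 and by 0.32 ± 0.08 on day 7 (adjusted p = 0.0192 and 0.00483), and Echs1 by 0.28 ± 0.09 on day 3 (adjusted p = 0.0189). Acaa2, a thiolase, was at 93.6 ± 24.9 CPM on day 0, 156 ± 31 on day 3 and 183 ± 37.1 on day 7 in WT. In KO it was at 122 ± 12.2, 134 ± 14.3 and 163 ± 40.4, with no call (adjusted p = 0.094 on day 7 against day 0). Of the enzymes for unsaturated acids, the isomerase Eci2 rose from day 3 to day 7 by 0.52 ± 0.14 in WT and by 0.35 ± 0.09 in KO (adjusted p = 0.0145 and 0.0133). The isomerase Eci1 and the reductase Decr1 rose in KO, by 0.27 ± 0.08 and 0.21 ± 0.05, whereas Decr2, the peroxisomal reductase, was called in none of the comparisons of days.

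Of the members, the ketone body enzymes Bdh1 and Acat1 were called against day 0, Acat1 in KO on day 3 only. Neither was called between days 3 and 7. Bdh1, 3-hydroxybutyrate dehydrogenase, was at 142, 104, 115 and 108 CPM in untreated WT mice and at 131, 158, 119, 140 and 116 in untreated KO mice. Lowest, median and highest values were 163, 189 and 199 CPM on day 3 and 148, 195 and 224 on day 7 in WT, and 169, 184 and 229 on day 3 and 168, 189 and 202 on day 7 in KO. All DSS libraries were above all untreated libraries of their own genotype, and days 3 and 7 overlapped. Bdh1 was higher on day 3 than on day 0 by 0.55 ± 0.11 in WT and by 0.38 ± 0.09 in KO (adjusted p = 0.00106 and 0.0023), and the log2 fold change from day 3 to day 7 was 0.07 ± 0.09 and 0.00 ± 0.06. Acat1, the acetoacetyl-CoA thiolase, was at 123 ± 20.9 CPM on day 0, 176 ± 22.2 on day 3 and 178.5 ± 26 on day 7 in WT, called on both days. In KO it was at 129 ± 18.9, 167 ± 11.4 and 153 ± 14.2, called on day 3 (adjusted p = 0.0299) and not on day 7 (adjusted p = 0.251).

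Nuclear receptors and peroxisomal members changed unevenly. Pparg was at 73.9 ± 14 CPM on day 0, 102 ± 18.8 on day 3 and 124 ± 16 on day 7 in WT, and at 88.5 ± 7.35, 103 ± 12.3 and 125 ± 14.4 in KO, with day 7 above day 0 in both (adjusted p = 0.000787 and 0.00296). Ppara rose in KO only by the test, from 19.3 ± 3.26 CPM on day 3 to 27 ± 3.23 on day 7 (adjusted p = 0.00483). In WT it was at 18.2 ± 4.34 and 20.6 ± 5.54 CPM (adjusted p = 0.503), and the difference between these changes was 0.30 ± 0.22 with an adjusted p of 1. Ehhadh, the peroxisomal bifunctional enzyme, was called in WT on day 3 and day 7 against day 0, at 0.49 ± 0.12 and 0.51 ± 0.13. Acaa1a, a peroxisomal thiolase, was called in no comparison. Its paralog Acaa1b was much lower per kilobase, at 1.38 against 20.3 CPM per kb in untreated WT mice. Acaa1b rose by 1.04 ± 0.31 in KO between days 3 and 7 (adjusted p = 0.0244). In WT it was at 8.17 ± 3.58 and 15.4 ± 6.48 CPM (adjusted p = 0.0619). Against day 0, Acaa1b rose by 1.48 on day 3 and 2.41 on day 7 in WT, and by 1.55 on day 7 in KO. These 3 calls were made in every fit that leaves out 1 library, and 2.41 was the largest change of any member in that comparison. Reads shared by near-identical copies make Acaa1b, and the thioesterases Acot1 and Acot2, uncertain.

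Acot1 and Acot2 split acyl-CoA into free acid and CoA, in the cytosol and in mitochondria. Acot2 was at 3.92 to 6.99 CPM in WT and 6.43 to 7.81 in KO on day 0, and at 3.69 to 6.05 in WT and 3.43 to 5.51 in KO on day 3. It fell in KO by 0.78 ± 0.12 between days 0 and 3 (adjusted p = 0.000111), the only member that fell in that comparison. Between days 3 and 7 it rose in WT by 0.62 ± 0.16 (adjusted p = 0.0149). In KO on day 7 d7_KO_420 had 14.7 CPM and the others at most 6.55. Acot1 rose in KO between days 3 and 7, from 4.64 ± 1.03 to 7.54 ± 2.29 CPM (adjusted p = 0.0181).

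Cd36, a fatty acid uptake receptor that macrophages, endothelium and adipocytes also carry, was the lowest member. It had 1 to 7 counts per library in untreated WT mice and 0 or 1 in untreated KO mice, so no fold against untreated KO mice is given. On day 7 it was at 0.25, 0.447 and 0.821 CPM (lowest, median and highest) in WT and at 0.205, 0.421 and 6.09 in KO. The 3 highest KO values, 6.09 in d7_KO_368, 5.64 in d7_KO_366 and 1.66 in d7_KO_367, came with macrophage and monocyte sums of 417, 258 and 188 CPM. Other libraries of day 7 went the other way. The marker sum was 214.5 CPM in d7_KO_420, which was not among these 3, and 161 in d7_KO_422, which had the lowest Cd36. In WT it was 220 CPM in d7_WT_356, in the group where Cd36 was at most 0.821. On day 3 the library labelled d3_KO_345 had 3.38 CPM of Cd36 and a macrophage and monocyte sum of 114 CPM, against at most 0.431 CPM of Cd36 and 28.5 of the markers in the other 7 KO libraries. Their part in the level of Cd36 was not tested. Cd36 passed the test on day 7 against day 0 in both genotypes. In KO its counts were too low to be tested without any one of d7_KO_366, d7_KO_367, d7_KO_368 and d7_KO_423, or without both d7_KO_366 and d7_KO_368, a choice made after seeing the data, and with the small intestine covariate it was not called (adjusted p = 0.2). In WT it was called in 8 of 11 fits that leave out 1 library, not without d0_WT_41, d0_WT_43 or d0_WT_46, and under 4 of 7 other settings. Between days 3 and 7 in KO it was called only without d3_KO_345 (adjusted p = 0.013).

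**Figure D3:**
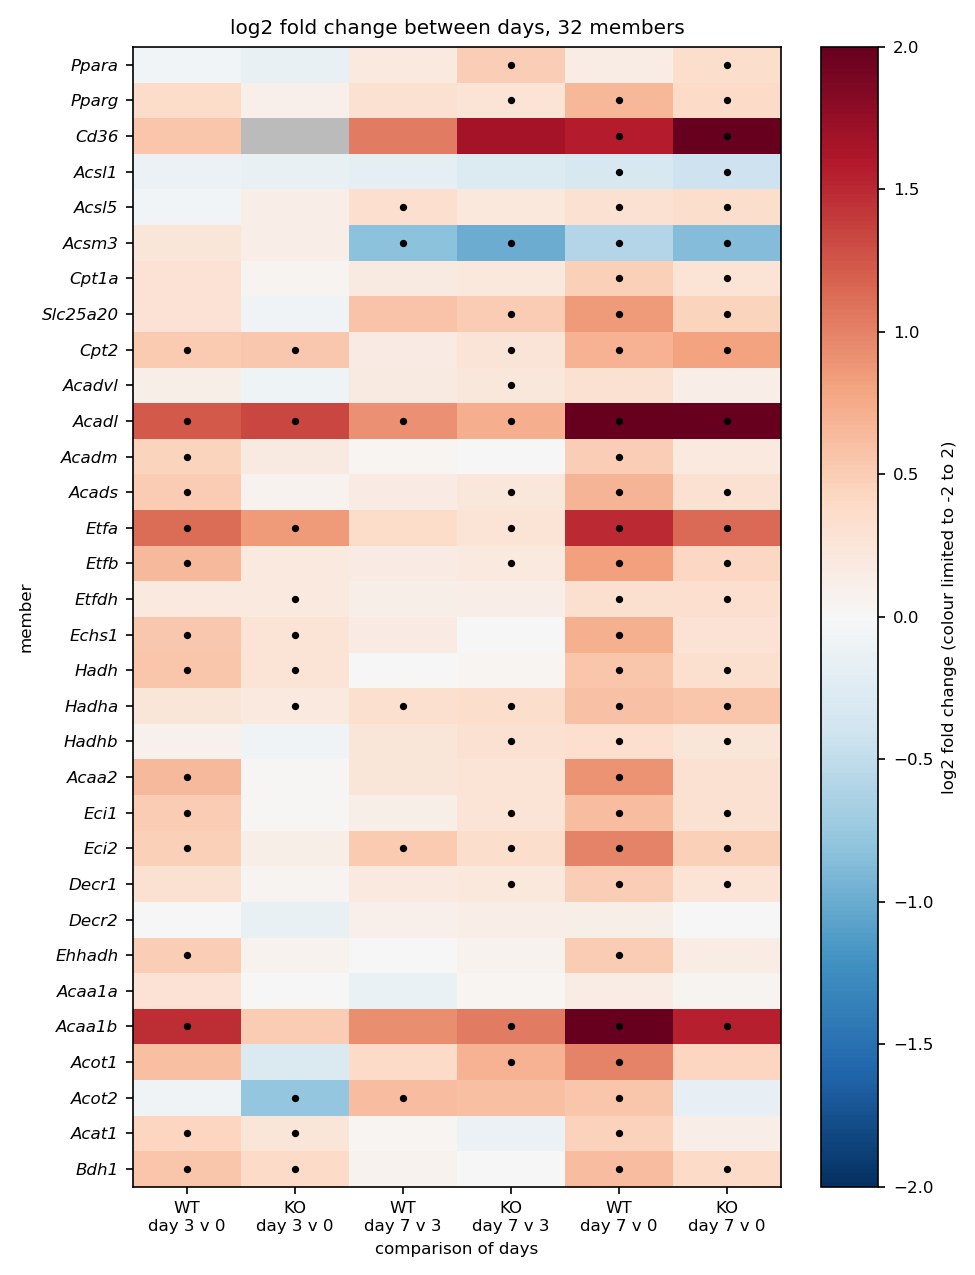
log2 fold change (colour, limited to -2 to 2) of the 32 members (y axis) in the 6 comparisons of days (x axis), with a dot where the adjusted p was under 0.05 and grey where Cd36 was not tested. Acadl has a dot in all 6 columns, Acsm3 is blue with a dot in the 4 columns that hold day 7, and Decr2 and Acaa1a have no dot.

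Against untreated mice, 15 members rose and none fell in WT on day 3 of 32 tested, and 9 rose and 1 fell in KO of 31 tested. Over all genes, 20.4% rose and 25.6% fell in WT, and 22.6% rose and 23.7% fell in KO. With 1 library left out, 11 of the 15 WT calls and 5 of the 10 KO calls were made in every fit, Eci2 in WT in 5 of 11 and Hadha in KO in 2 of 13. On day 7, 26 members rose and 2 fell in WT and 20 rose and 2 fell in KO, of 32 each. Over all genes 27.8% rose and 29.2% fell in WT, and 27.3% rose and 27.3% fell in KO. Here 19 of the 28 WT calls and 17 of the 22 KO calls were made in every fit, Hadhb in 5 of 11 in WT and 5 of 12 in KO and Acot2 in 4 of 11 in WT. The median log2 fold change of the members was 0.44 on day 3 and 0.57 on day 7 in WT and 0.09 and 0.31 in KO, with 0.01 to 0.03 over all genes. WT and KO were each compared with their own untreated mice, and the difference between their changes by day 7 passed the test for no member. Under TMM scaling, summed epithelium markers had medians of 11540 CPM on day 0, 13490 on day 3 and 15250 on day 7 in WT. In KO these were 10920, 15600 and 15920. Directions against day 0 depended on the scaling: scaled to summed epithelium markers, the median of all genes shifted by -0.16 and -0.26 in WT and by -0.38 and -0.38 in KO on days 3 and 7. The members' medians then were 0.28 and 0.31 in WT and -0.30 and -0.06 in KO, with 2 members higher and 8 lower in KO on day 3 and 5 and 5 on day 7. Among the members called in KO, Etfdh, Echs1, Hadh, Hadha and Acat1 turned negative on day 3 under this scaling, and Ppara, Pparg, Acsl5, Cpt1a, Acads, Etfdh, Hadh, Hadhb, Eci1 and Decr1 on day 7. The share of all called genes that were higher moved with it, from 44.3% to 24.5% on day 3 and from 48.8% to 28.8% on day 7 in WT, and from 48.8% to 10.4% and from 50% to 19.2% in KO. Without d0_KO_53 or d0_KO_60 the KO count on day 3 was 4 higher and 1 lower. Over all genes 6411 and 6610 were called in these fits, in place of 7409.

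KO and WT were compared on each day to ask whether loss of Hk2 changed these genes. No member passed the test on day 0, day 3 or day 7 with edgeR, and none with the DESeq2 Wald test. Over all genes 0.0335%, 0.00647% and 0.00642% were called, and 7 of 31, 1 of 32 and 6 of 32 members had an unadjusted p under 0.05, which is 22.6%, 3.12% and 18.8% of them beside 10.5%, 7.88% and 12.9% of all genes. The members' median log2 fold change of KO over WT was 0.16 on day 0, -0.11 on day 3 and -0.05 on day 7. Leaving out Cd36, the 95% interval lay within a log2 difference of -1 to 1 for 29 of 31 members on day 0 and for all 31 on days 3 and 7. It lay within -0.5 to 0.5 for 21, 26 and 23 of the 31 on days 0, 3 and 7. On day 7 the fit gave 0.39 for Ppara, with an interval of 0.07 to 0.71, -0.39 for Acsm3 (-0.78 to -0.01) and -0.22 for Acat1 (-0.43 to -0.02), with adjusted p of 0.339, 0.381 and 0.357. Echs1 and Eci2 had -0.32 and -0.30 on day 7, with adjusted p of 0.382 and 0.369, and Hadh had -0.18 on day 3 (adjusted p = 0.623). Without d3_KO_345 no member was called on day 3 either.

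On day 0 the largest differences were in low members. Hox genes of the distal gut summed to 170 to 211 CPM in WT and to 42.9 to 145 in KO on that day, so the groups did not overlap, and the part of gut position in these values was not tested. Acot1 was at 4.58, 2.92, 2.94 and 3.01 CPM in WT and at 4.61, 5.43, 5.15, 5.76 and 5.02 in KO, so that the groups did not overlap (log2 fold change 0.66 ± 0.19, adjusted p = 0.295). It was the only member without overlap on day 0, and the share of all genes without overlap was not counted. Acaa1b had 0.89 ± 0.32 (adjusted p = 0.381) and Acot2 0.54 ± 0.18 (adjusted p = 0.368). The highest WT value of Acot1 was in d0_WT_31, which was the highest of its group for 28 of 32 members, with the share over all genes not counted. Without d0_WT_31 and d0_KO_32, the libraries with high Xist, 6 members were higher in KO, and 3.73% of all genes were called in either direction. The 6 were Acads at 0.35 ± 0.08, Acaa2 at 0.56 ± 0.09, Eci2 at 0.36 ± 0.08, Ehhadh at 0.42 ± 0.09, Acot1 at 0.83 ± 0.16 and Acot2 at 0.73 ± 0.15, with adjusted p from 0.0162 to 0.0418. Without d0_WT_31 alone, Acaa2 was called (adjusted p = 0.0464), as were 37 of 15222 genes in all, in place of 5 of 14944. The pair was chosen after seeing the data, and 3 WT and 4 KO libraries remained.

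**Figure D4:**
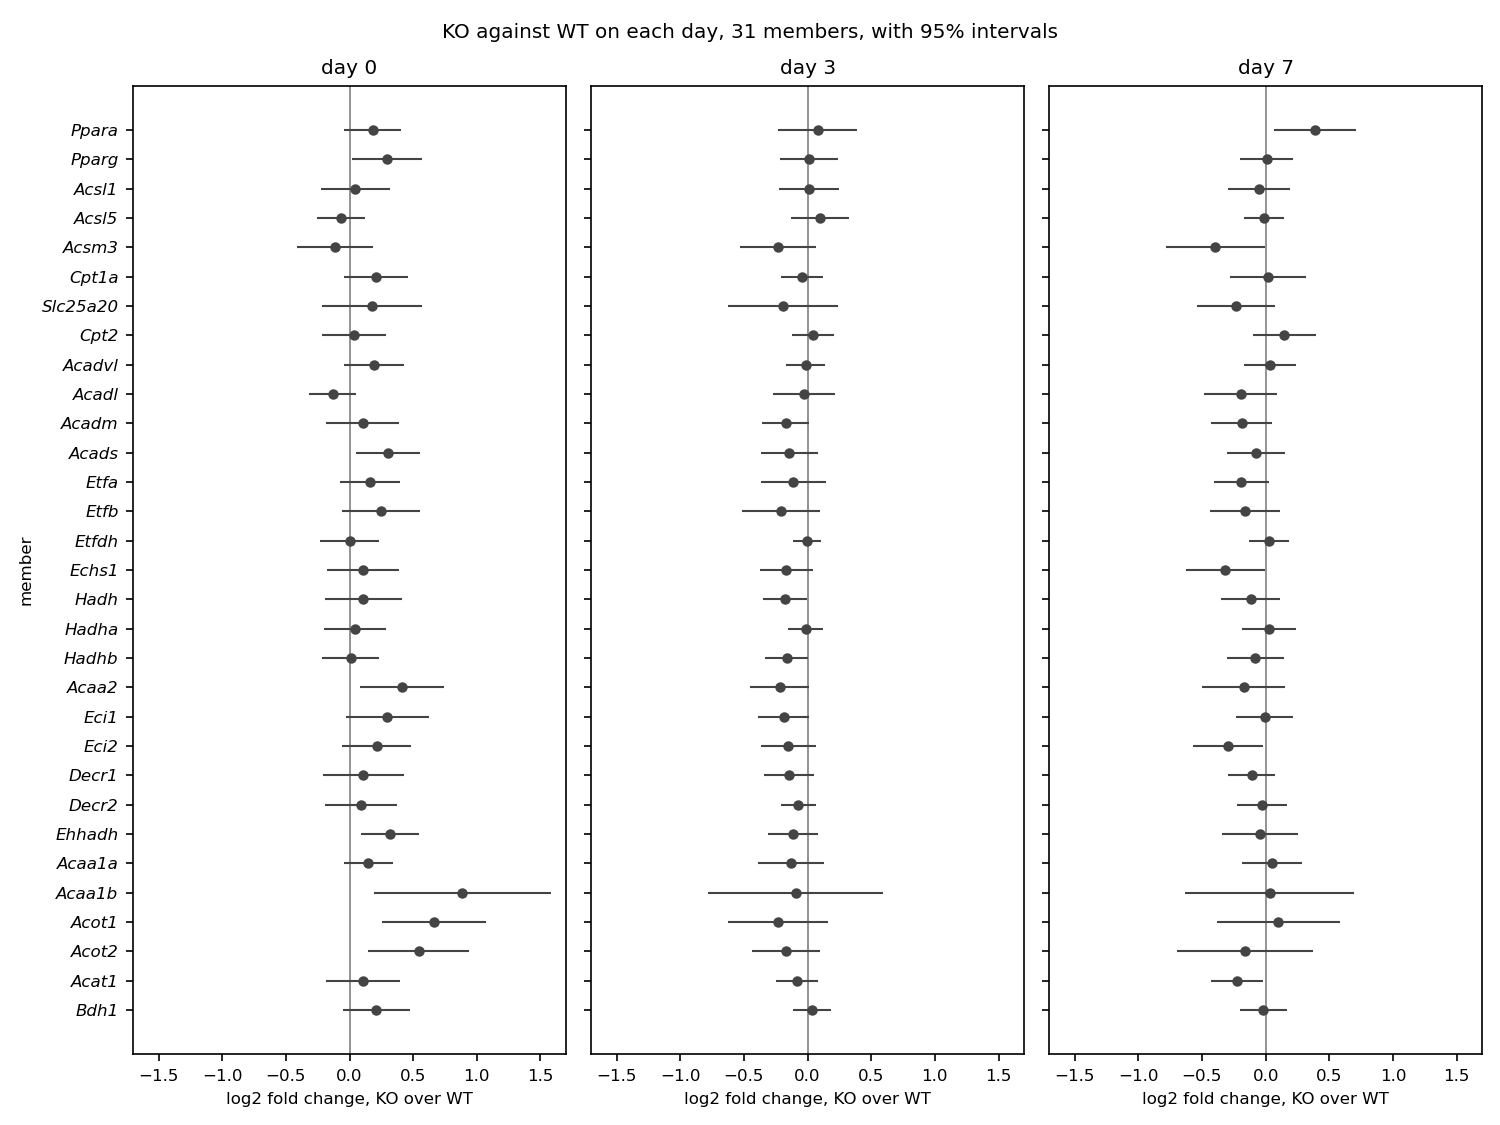
log2 fold change of KO over WT (x axis) with its 95% interval for 31 members (y axis, Cd36 left out) on days 0, 3 and 7. Most points lie right of 0 on day 0 and left of 0 on day 3, and none passed the test after adjustment.

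The test of whether the genotypes differed in their change was negative for the members. Between days 3 and 7 no member and 0% of all genes were called, with 0 members and 440 of 16371 genes at an unadjusted p under 0.05. Between days 0 and 7 no member was called, with 0.00531% of all genes called and 5 of 32 members (15.6%) at an unadjusted p under 0.05, beside 2544 of 18830 genes (13.5%). These were Cd36, Acads, Etfa, Acaa2 and Eci2. The difference of the changes was -0.55 ± 0.24 for Acaa2 and -0.32 ± 0.15 for Etfa (adjusted p = 0.311 and 0.367). Without d7_KO_420 Acot2 was called, at -1.01 ± 0.26 (adjusted p = 0.0493). Over all genes 279 of 18659 were called in that fit, in place of 1 of 18830.

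Some libraries were the highest or lowest of their group for many members. How often they were so over all genes was not counted, so whether these counts are particular to the members is not known. On day 3 d3_WT_381 was the highest WT library for 24 of 32 members and d3_KO_345 the lowest KO library for 15. On day 7 d7_WT_431 was the highest WT library for 20 and d7_WT_356 the lowest for 17, and d7_KO_420 was the highest KO library for 19. The colonocyte sum was 13900 CPM in d3_WT_381, 14370 in d7_WT_431 and 13570 in d7_KO_420, the highest of their groups, and 5162 in d7_WT_356, the lowest of its group. Car1 alone had a median of 5464 CPM over the 38 libraries. In d3_WT_381, d7_WT_431 and d7_KO_420 other sums were also the highest of their groups. The small intestine sums were 75.7, 119 and 155 CPM, and the epithelium sums 19110, 17020 and 17580. The epithelium sum was also the highest of its group in d3_KO_345, at 20680 CPM. In the colonocyte sum some other libraries that stood apart lay within their groups. The sum was 7699 CPM in d3_KO_345, beside a group median of 7732. In d3_WT_346, the lowest WT library of day 3 for 16 members, it was 8873, in a group from 6004 to 13900. In d0_WT_31 the sum was 5658, in a group from 4112 to 6040. By contrast d0_KO_32, the highest untreated KO library for 21 members, had a sum of 5640, the lowest of a group reaching 8053. Genes with a count numbered 19084 in d3_WT_381, the fewest of any library. The part of the marker sums and of the number of genes with a count in the levels of the members was not tested.

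**Figure D5:**
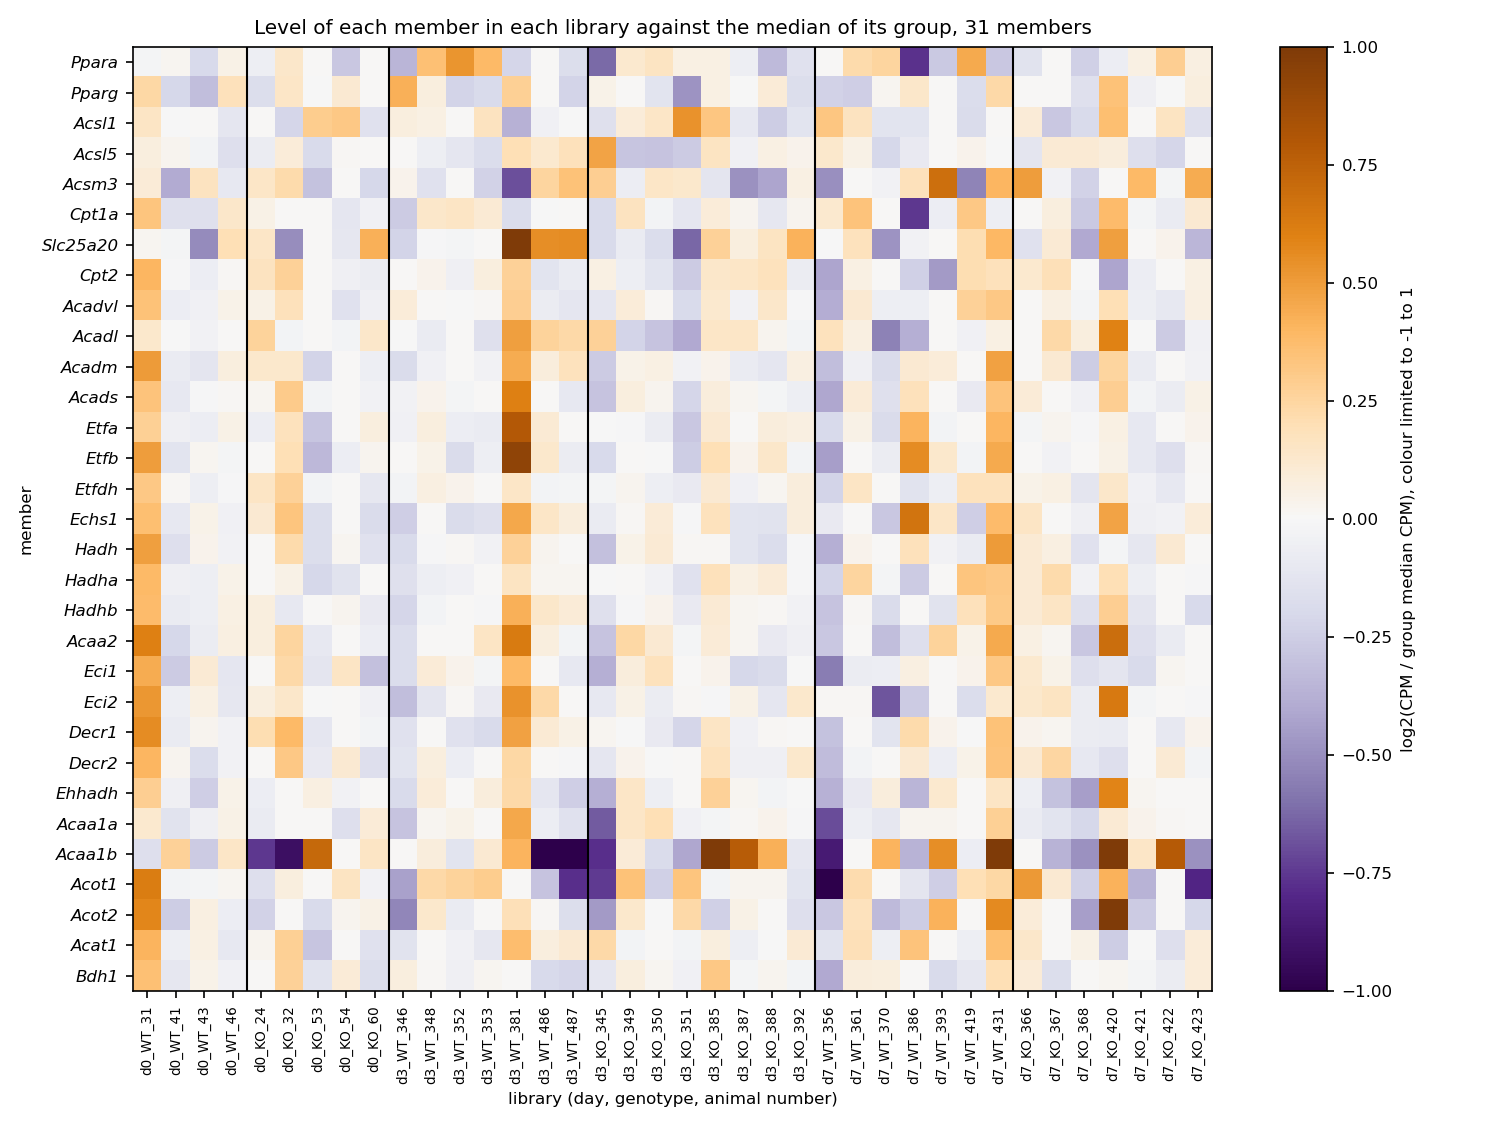
log2 ratio of each of 31 members (y axis) to the median of its group in each of the 38 libraries (x axis; colour limited to -1 to 1; black lines part the 6 groups). Columns of 1 colour mark libraries in which most members lie on the same side, such as d0_WT_31, d3_WT_381 and d7_WT_431 above and d7_WT_356 below.

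Further genes of the pathway, 90 in 8 lists, changed in both directions between days 3 and 7. Of 79 tested, 13 rose and 10 fell in WT, and 14 rose and 12 fell in KO, beside 10.6% higher and 8.7% lower over all genes in WT and 10.5% and 8.83% in KO. Of the peroxisomal genes 3 rose and none fell in WT and 5 rose and none fell in KO, of 13 tested, among them Pex11a, which promotes peroxisome division, at 0.66 ± 0.12 and 0.67 ± 0.14. Of the further genes of oxidation in the mitochondrial matrix none rose, and 2 fell in WT and 4 in KO of 12, such as Ivd, a dehydrogenase of leucine breakdown, at -0.45 ± 0.09 and -0.30 ± 0.09. In the list of ketone body and short-chain acid handling, 1 rose and 2 fell in WT and 1 rose and 3 fell in KO, of 7. Oxct1, which starts ketone body use, fell by 0.52 ± 0.13 and 0.73 ± 0.13, and Slc5a8, an importer of butyrate and lactate, fell by 0.75 ± 0.15 and 0.53 ± 0.11. Slc16a3, a lactate exporter, rose by 2.80 ± 0.34 and 2.35 ± 0.35. Among further PPAR target genes 3 rose in WT and 2 in KO of 9 tested, led by the pantetheinase Vnn1, at 1.89 ± 0.29 and 1.66 ± 0.22. The coactivator Ppargc1a fell by 0.81 ± 0.26 and 0.84 ± 0.22. Of 10 uptake and activation genes 3 fell in each genotype, with none higher in WT and 1 in KO. Acss2, which activates acetate, fell by 0.86 ± 0.14 and 0.80 ± 0.13. Of the carnitine shuttle list 2 of 6 rose in each genotype, Acacb, whose product restrains Cpt1a, and the carnitine importer Slc22a5, at 0.73 ± 0.21 and 0.43 ± 0.15 in WT. No gene of these lists passed the test between KO and WT on any day.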

How the data were processed

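RNA was measured in 38 libraries of mouse intestinal epithelial cells. The deposited values are raw counts of read pairs per gene, 2 lane files per library. Per the file headers they were made with featureCounts 1.6.2 ignoring strand; the submitters' processing notes name Trim Galore, STAR, featureCounts 1.5.2 and GRCm38. Lanes were summed. edgeR 4.0.16 (R 4.3.3) fitted a quasi-likelihood model with TMM scaling to the compared groups only, after its filter on low counts, with Benjamini-Hochberg adjustment over all genes tested and a threshold of 0.05; the script was tested on simulated data. Intervals of 95% use the degrees of freedom of the fit. P-values weigh the difference between groups against the spread between animals within groups. Against day 0 they do not cover the difference between the sets of libraries. Alternatives were DESeq2 1.42.0 and its size factors, 2 other count filters, all libraries in 1 fit, scaling to epithelium markers, a small intestine covariate, leaving out each library, and 2 sets of libraries left out after seeing the data. All 32 members are named; of each pathway list, the 3 genes with the smallest p between days 3 and 7 in WT could be named, except 1 that is not reported here. The members and lists were chosen with earlier results of these data known.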

Additional observations from a re-analysis of the deposited data

Results flagged for a closer look

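In groups of 4 to 8 libraries the gap between an extreme library and its nearest neighbour was compared with the range of the group (Dixon's 95% critical value). The rule was applied to CPM without a log. It was exceeded 22 times in 192 groups of 1 member each, in 17 genes. For independent groups chance gives about 1 in 20, or 9.6. These groups were not independent, as 8 of the 22 were in d3_WT_381 and 6 in d7_KO_420, so the excess over 9.6 cannot be judged. In d3_WT_381 the highest values of WT on day 3 were Slc25a20 at 300.5 CPM, Acads at 484, Etfa at 257, Etfb at 256.8, Hadh at 456, Acaa2 at 222, Decr1 at 133.5 and Acaa1a at 158. In d7_KO_420 the highest values of KO on day 7 were Pparg at 155 CPM, Echs1 at 191, Acaa2 at 250.1, Eci2 at 63.5, Ehhadh at 100.9 and Acot2 at 14.7. In d0_WT_31 Cpt2 at 75.9 CPM, Decr1 at 99.5 and Acot1 at 4.58 stood above the other untreated WT libraries, and in d0_KO_32 Acads at 318 above the other untreated KO libraries. Cd36 stood out in the library labelled d3_KO_345 at 3.38 CPM and in d3_WT_353 at 0.562. Acaa1a was lowest in the library labelled d3_KO_345, at 68.5 CPM, and Bdh1 was highest in d3_KO_385, at 229 CPM.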

How the results depend on the processing

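Counts of members called between KO and WT, and for both tests of a difference in change, stayed at 0 under the 7 other settings that keep every library. Leaving out single libraries gave 0 to 1 for KO against WT on day 0 (1 without WT 31) and 0 to 1 for the change by day 7 (1 without KO 420), and 6 for KO against WT on day 0 without WT 31 and KO 32. Between days 3 and 7 the WT count was 10 with all 38 libraries in 1 fit, 2 with the small intestine covariate and 5 to 14 with 1 library left out, and the KO count was 5 under epithelium scaling and 12 to 17. Day 3 against day 0 gave 7 (epithelium scaling) and 11 to 21 in WT, and 5 (1 fit), 6 (covariate) and 5 to 14 in KO. Day 7 against day 0 gave 16 (epithelium scaling) and 20 to 29 in WT, and 10 and 18 to 24 in KO. Calls over all genes moved too, but not always in the direction of the members. Between days 3 and 7 in WT they numbered 3918 in 1 fit and 1152 with the covariate, in place of 3002. In KO they numbered 2116 under epithelium scaling, in place of 3008. For day 3 against day 0, epithelium scaling gave 5726 in place of 7893 in WT. In KO there were 6606 in 1 fit and 4198 with the covariate, in place of 7409. For day 7 against day 0, epithelium scaling gave 9364 in place of 9919 in WT and 9291 in place of 8938 in KO. There the calls over all genes changed little or rose while those of the members fell. Epithelium scaling reversed KO values on day 3 (median -0.30, Etfdh -0.18, Echs1 -0.087, Hadh -0.082, Hadha -0.19, Acat1 -0.13). On day 7 it reversed the KO median (-0.0565), Ppara (-0.027), Pparg (-0.0065), Acsl5 (-0.035), Cpt1a (-0.12), Acads (-0.084), Etfdh (-0.046), Hadh (-0.052), Hadhb (-0.15), Eci1 (-0.061) and Decr1 (-0.099). The median difference in change between days 3 and 7 ran from -0.033 to 0.094 with 1 library left out and was below 0 in 3 of these fits (d7_WT_356, d3_WT_381 and d7_KO_420 left out; -0.0017, -0.028 and -0.033). The cause was not tested. No paired analysis was possible because the animal numbers are not shared between groups.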
